A study of Mchenga conophoros with 13 samples.

Results

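The extracellular matrix and integrin genes were taken as features of the count tables whose names begin with col and a digit, lama, lamb or lamc and a digit, nid, fbn, fbln, hmcn, hspg2, itga or itgb, with at least 10 UMIs (unique molecular identifiers, each a captured RNA molecule) over all capture areas. Of 61 features with such a name, 55 met the minimum, out of 32471 features in all. The names at the edge of the minimum were col11a1 with 11 UMIs just inside, and itgb6 and col28a1 with 7 UMIs each just outside. The name pattern also took in 3 features that are not matrix proteins or integrin chains, namely col4a3bp, a ceramide transfer protein, itgb1bp1, a cytoplasmic protein that binds an integrin tail, and itgbl1, a secreted protein that resembles part of an integrin beta chain. Matrix and integrin genes that the feature table lists only under locus numbers are not members.

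The samples were coronal telencephalon sections of adult *Mchenga conophoros* males, a Lake Malawi cichlid, older than 180 days. The 2 building males were collected while constructing a castle bower, a sand structure used in courtship, and the 2 control males while not constructing one. All males had been kept with sand and reproductive females. They were collected as 2 pairs of a building and a control male of like size, and the labels do not say which males formed a pair. Each section lay on a Visium capture area, a field of barcoded spots on a slide, and a spot can hold several cells of different types or parts of cells. Building male 1 had 1 capture area and the other males 4 each, so for building male 1 the plane of section and the male cannot be told apart.

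The 13 capture areas held 6751 spots with 51779064 UMIs. Medians per spot ran from 1225.5 UMIs in area C of control male 1 to 11973 in area D of control male 2. Of 78 pairs of areas, 75 shared spot barcodes, since slides carry the same barcodes, and spots were kept apart by area. The replicate is the male, with n = 2 in each condition, and n = 4 where spot classes were compared within males. In sums over spots, fewer cells of a type and less RNA per cell cannot be told apart. Neuronal markers of the telencephalon were abundant, with 30148 UMIs of slc17a6 (a vesicular glutamate transporter) and 26900 of gad2 (a GABA synthesis enzyme).

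The extracellular matrix of the brain has a sheet-like part, the basement membrane, and a diffuse part between cells. Basement membranes are built from laminins (trimers of alpha, beta and gamma chains), type IV collagen, nidogens and the proteoglycan perlecan, and they line blood vessels and the outer surface of the brain, where radial glial endfeet attach. Fibrillar collagens are made mainly by fibroblasts of the meninges and vessel walls. Integrins are surface receptors made of an alpha and a beta chain that bind these proteins. In teleosts radial glia persist in the adult brain and give rise to new neurons.

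Together the 55 members held 25395 UMIs, or 0.049% of all UMIs. The 4 with the most UMIs were itgav with 3667 (an integrin alpha chain), itgb5 with 2951 (a beta chain that pairs with the itgav product), lama5 with 2884 (a laminin alpha chain) and col25a1 with 2820 (a transmembrane collagen of neurons), and they made up 48.5% of the members' UMIs. These are counts from the 3' ends of transcripts and not levels per length, so they describe depth and no order of levels between genes was drawn from them. A UMI was found in all 13 areas for 27 members, and 19 members had fewer than 100 UMIs.

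Levels were compared across capture areas as CPM, the UMIs of a gene divided by all UMIs of the same area or spot class and scaled to a common total. The CPM of itgav ran from 59.2 to 91.3 over the 13 areas, with a median of 67.1. That of itgb5 ran from 40.1 to 68.0 with a median of 56.1. Both integrin chains thus varied by less than a factor of 2 between sections. The CPM of lama5 ran from 9.81 to 77.7 with a median of 57.3, and that of col25a1 from 19.9 to 66.5 with a median of 54.8. The perlecan gene hspg2 ran from 3.28 to 40.9 CPM with a median of 22.9, and hmcn1, which encodes the large matrix protein hemicentin, from 0 to 25.3 CPM with a median of 7.27. Sections of the same male lay far apart for these last genes, and in control male 1 hmcn1 was at 0 CPM in area A and at 22.4 CPM in area D.

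**Figure D1:**
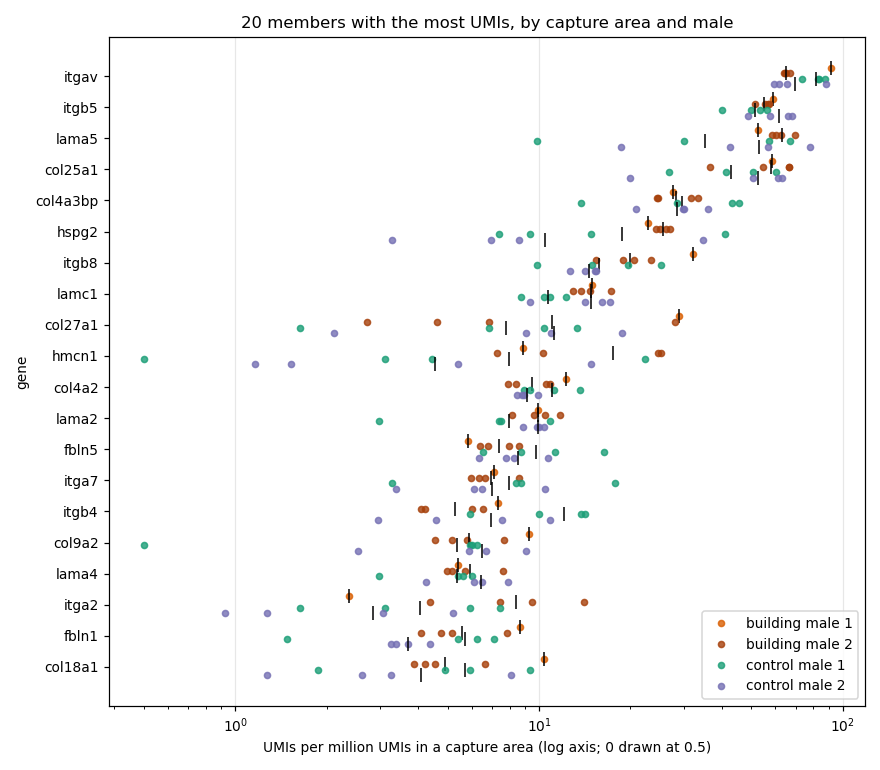
CPM in each capture area (points, log axis, coloured by male) and over all areas of a male (black bars) for the 20 members with the most UMIs. The points of itgav stay between 59.2 and 91.3 CPM, while those of hmcn1 run from 0 to 25.3 CPM and overlap widely between males.

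Among the 3 males with 4 areas each, 7 of the 55 members, or 12.7%, had a pair of males whose areas did not overlap, against 20.4% of the 18252 features with at least 10 UMIs. The members' share was thus below that of all features. These were itgav, itgb8, lamc1, itga10, itgb1bp1, col6a6 and col21a1. All areas of control male 1 lay above all areas of building male 2 for itgav, with 81.7 and 65.2 CPM over the whole male, while for lamc1, a laminin gamma chain, building male 2 lay above control male 1, with 14.8 and 10.7 CPM. For itga10, itgb1bp1 and col21a1, both building male 2 and control male 2 lay above control male 1, the male with the fewest UMIs per spot among them. The part of depth and of section plane in these differences was not tested. The rare col20a1 had 16 of its 19 UMIs in the only area of building male 1.

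The first comparison asked which members differed between pallial and subpallial spots, the regions rich in glutamatergic and GABAergic neurons. Spots were called pallial where the mean sctransform residual of 7 pallial genes exceeded that of 9 subpallial genes, which gave 3787 pallial and 2964 subpallial spots. Of 34 members with enough counts to test, 2 were higher in pallial spots and 10 lower, or 35.3% in all, against 21.8% of the 13356 genes tested (edgeR quasi-likelihood test with the male as block, Benjamini-Hochberg adjusted p under 0.05). By direction, 5.88% of members were higher and 29.4% lower, against 10.6% and 11.2% of all genes. The members' median log2 fold change was -0.15, against 0.00 over all genes.

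The genes lower in pallial spots came from several families. The transmembrane collagen gene col13a1 changed most, with 0.386, 0.625, 0.260 and 0.534 CPM in pallial spots of building males 1 and 2 and control males 1 and 2, and 13.3, 6.94, 3.52 and 4.13 CPM in their subpallial spots. The groups did not overlap, and the log2 fold change was -3.50 (edgeR adjusted p = 4.74e-05).

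For hmcn1 the pallial values were 3.48, 2.71, 0 and 1.96 CPM, and the subpallial values 15.7, 37.7, 21.5 and 10.9 CPM in the same order of males. Every subpallial value lay above every pallial value, with a log2 fold change of -3.41 (edgeR adjusted p = 0.00013). The fibrillar collagen gene col27a1 was at 6.95, 2.64, 2.85 and 3.47 CPM in pallial and 57.1, 22.5, 16.3 and 30.2 CPM in subpallial spots. It was lower in pallial spots of all 4 males, with a log2 fold change of -3.01 (edgeR adjusted p = 7.53e-07). The perlecan gene hspg2 was at 12.8, 7.70, 6.23 and 5.78 CPM in pallial and 35.9, 50.1, 40.0 and 22.0 CPM in subpallial spots. These groups also did not overlap, and the log2 fold change was -2.28 (edgeR adjusted p = 2.34e-05).

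The integrin beta chain gene itgb8, known in mammals for activating latent TGF-beta, was at 15.8, 9.37, 10.4 and 10.8 CPM in pallial and 53.1, 34.2, 25.1 and 24.1 CPM in subpallial spots. It was the only one of 8 tested integrin chain genes that passed the test, with a log2 fold change of -1.54 (edgeR adjusted p = 4.75e-05). The other lower members were lama3 at a log2 fold change of -1.73, col18a1 at -1.45, col6a1 at -1.12, col25a1 at -1.04 and fbln1 at -1.01. They encode a laminin alpha chain, a basement membrane collagen, a chain of type VI collagen, a collagen of neurons and fibulin 1.

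Against these, lama5 was higher in pallial spots. It was at 78.8, 91.2, 46.5 and 62.7 CPM in pallial and 19.7, 25.1, 16.3 and 29.8 CPM in subpallial spots, and the log2 fold change was 1.60 (edgeR adjusted p = 3.28e-05). The other such gene was col24a1, a fibrillar collagen gene, at 7.34, 5.55, 3.63 and 9.16 CPM in pallial and 1.48, 1.50, 0 and 2.39 CPM in subpallial spots, with a log2 fold change of 2.09 (edgeR adjusted p = 0.00087). Each of the 12 members differed in the same direction in all 4 males. Of the most counted members, itgav had a log2 fold change of 0.02 and itgb5 of -0.16, and neither passed the test. With DESeq2, 2 members were called higher and 9 lower, against 15.4% of all genes called in either direction. There col6a1 did not pass the test (DESeq2 adjusted p = 0.1003). Without building male 2, lama3 and fbln1 were not called. The same held for fbln1 without control male 1, and for lama3 and col6a1 without control male 2.

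**Figure D2:**
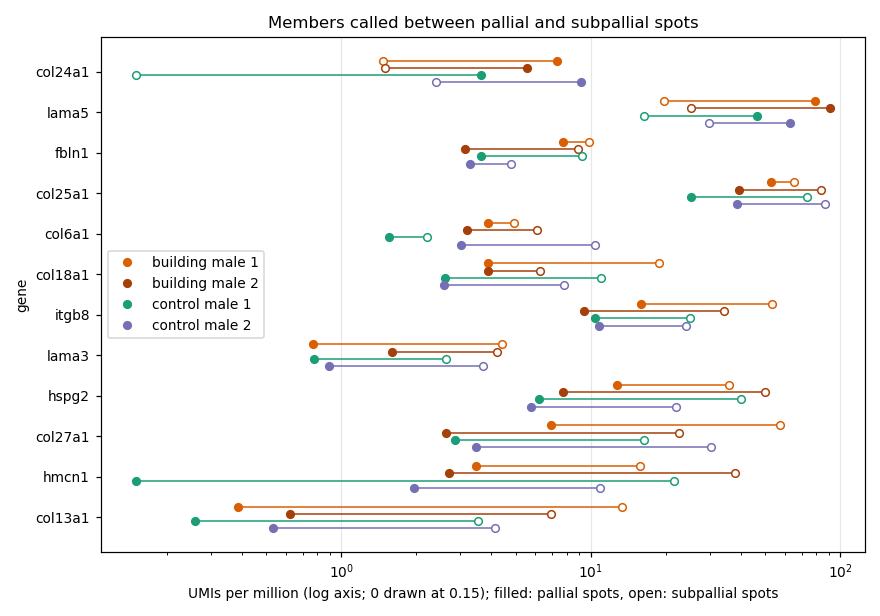
CPM (log axis) in pallial spots (filled points) and subpallial spots (open points) of each male, joined by a line, for the 12 members called in this comparison. The filled points of lama5 and col24a1 lie to the right of the open ones in all 4 males, and those of the other 10 to the left.

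Pallial spots were deeper than subpallial spots, with medians of 3919.5 and 2000.5 UMIs in control male 1 and of 10205.5 and 7311 in control male 2. Spots were summed over all areas of a male, so section plane can also enter this contrast. Area D of control male 1 held 41 of that male's 49 hmcn1 UMIs, and area A of control male 2 held 35 of 72. These areas also had the highest CPM of hspg2 (40.9 and 34.7) and the lowest of lama5 (9.81 and 18.6). In building male 2, areas A to D held 168, 165, 76 and 32 hmcn1 UMIs. The part of section plane was not tested. Of the cell type lists described next, the summed fibroblast list differed most and was higher in pallial spots, by 0.67 ± 0.27 (SD, n = 4 males) on the log2 scale, with 29.7 to 33.1 CPM in pallial and 14.8 to 22.9 CPM in subpallial spots. The radial glia list differed by -0.23 ± 0.23 and the immune list by -0.26 ± 0.18, and the part of these lists in the result was not tested. In spots rich in none of the cell type lists scored, a setting chosen after seeing the data, 3 members were higher and 8 lower of 25 tested, against 10.3% and 10.4% of all genes, or 20.7% in both directions. They again included lama5 and col24a1 on the one side and hmcn1, col13a1, col27a1, hspg2 and itgb8 on the other.

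The next comparisons asked which members were higher where markers of a cell type were high. In each capture area the 10% of spots with the highest mean residual of a list were set against the others, which gave 676 rich and 6075 other spots for each list. The lists were radial glia (gfap, fabp7, slc1a3, s100b, cyp19a1 and id1), vascular cells (13 matched genes, among them cldn5, kdr and pdgfrb), fibroblasts (7 matched genes, among them postn and mgp), and immune cells (7 matched genes, among them apoeb, cd74 and csf1r). None holds a member. The fibroblast list is thin, with 22 UMIs of lum, 24 of ogn and 0 of fmod, and no defining fibroblast collagen was used. The immune list's UMIs were mostly of apoeb, with 34198, and cd74, with 19783.

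Radial glia-rich spots were higher for 15 of 32 members tested and lower for 2, or 53.1% in all, against 20.1% of 13021 genes (11.5% higher and 8.62% lower). The members' median log2 fold change was 0.82, against -0.03 over all genes. Integrin chain genes stood on the higher side in 5 of 7 cases tested.

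The laminin-binding integrin chain gene itga7 was at 19.7, 22.1, 37.2 and 22.9 CPM in radial glia-rich spots of building males 1 and 2 and control males 1 and 2, and at 5.58, 5.09, 5.03 and 5.41 CPM in the other spots. The groups did not overlap, with a log2 fold change of 2.23 (edgeR adjusted p = 6.46e-06). The gene itgb4, which encodes a further laminin receptor chain, was at 27.6, 17.7, 24.8 and 24.9 CPM in rich and 4.85, 3.80, 10.8 and 5.14 CPM in other spots, with a log2 fold change of 2.08 (edgeR adjusted p = 2.51e-05). It was higher in all 4 males.

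The abundant itgav was at 136, 112, 163 and 132 CPM in rich and 85.9, 59.6, 73.6 and 63.4 CPM in other spots. Its log2 fold change of 0.96 (edgeR adjusted p = 1.08e-05) was smaller than that of itga7, and its groups did not overlap. Its partner chain gene itgb5 had a log2 fold change of 0.99 and itga8 one of 1.21.

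Among collagen genes, col1a2, a chain of type I collagen, had the largest change, at 9.86, 15.9, 12.4 and 23.5 CPM in rich and 1.46, 2.90, 3.77 and 4.03 CPM in other spots. Its log2 fold change was 2.40 (edgeR adjusted p = 1.50e-05). The gene col9a2 was at 1.94, col23a1, which encodes a transmembrane collagen, at 1.87 and col18a1 at 1.64. Laminin chain genes went both ways. The log2 fold change was 1.81 for lama2, 1.49 for lama3 and 1.08 for lama4, but -0.84 for lama5, which was at 23.7, 29.5, 24.8 and 40.9 CPM in rich and 56.3, 67.1, 36.3 and 54.3 CPM in other spots (edgeR adjusted p = 0.0019). The other lower member was hmcn1, at -0.98. With DESeq2, which called 14.8% of all genes here, hmcn1 did not pass the test (DESeq2 adjusted p = 0.178), nor did hmcn2 on the higher side.

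Radial glia-rich spots were less often pallial, with 31.5% against 55.9% of spots in building male 2 and 38.6% against 52.0% in control male 1. Without control male 2 the count of members called was 11, against 13.8% of all genes. Of the laminin chain genes, lama5 was not called without building male 2. The genes lama3, lama4 and itga8 were not called without building male 2 or without control male 2. For hmcn1 the call was lost without building male 2, control male 1 or control male 2. In radial glia-rich spots 5 of 7 immune genes and 2 of 10 tested vascular genes were called higher, and the summed immune list was higher by 1.20 ± 0.44 (SD, n = 4) on the log2 scale. Of the radial glia-rich spots, 26.8% were also immune-rich and 21.0% vascular-rich. When spots rich in 1 list only were set against spots rich in none, a setting chosen after seeing the data that tested 21 members, itga7, itgb4, col9a2, itgb5 and itgav were higher and lama5 lower, against 9.57% of all genes called. There lama2 had a log2 fold change of 0.65 (edgeR adjusted p = 0.384), and col1a2 and col23a1 had too few counts to be tested.

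Vascular-rich spots were higher for 12 of 31 members tested and lower for 1, or 41.9% in all, against 9.11% of 12775 genes (7.05% higher and 2.06% lower). Basement membrane genes made up 6 of the 12, out of 8 of them tested. In immune-rich spots 6 of 8 were likewise higher and in radial glia-rich spots 4 of 9. The type IV collagen gene col4a2 was at 28.6, 25.3, 13.6 and 28.5 CPM in rich and 10.8, 8.06, 10.8 and 7.46 CPM in other spots. It was higher in all 4 males, with a log2 fold change of 1.58 (edgeR adjusted p = 2.59e-06). Its neighbour in the collagen network, col4a1, had 62 UMIs and was not tested. The largest change was that of the fibrillar collagen gene col1a2, at a log2 fold change of 1.945 (edgeR adjusted p = 5.75e-06). A further fibrillar collagen gene, col5a2, was at 1.525. In building male 1 col5a2 ran the other way, with 5.20 CPM in rich and 7.06 CPM in other spots. With DESeq2 col5a2 did not pass the test (adjusted p = 0.0804).

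The other basement membrane genes were col18a1 at a log2 fold change of 1.64, lama2 at 1.42, lama4 at 1.04, lamc1 at 0.88 and lama5 at 0.41. With DESeq2 the last 3 of these did not pass the test, with adjusted p of 0.0962 for lama4, 0.0682 for lamc1 and 0.268 for lama5. When notch3, which radial glia also express, was left out of the vascular list, a setting chosen after seeing the data, lama4 and itgb5 were no longer called. The call of col18a1 held in 3 of 4 males by direction, with 5.20 CPM in rich and 10.8 CPM in other spots of building male 1. The fibulin genes fbln1 and fbln5, whose products bind elastic fibres and basement membranes, were higher by 1.48 and 1.21. For fbln5 the values were 13, 17.0, 15.5 and 15.8 CPM in rich and 5.18, 6.50, 9.24 and 7.87 CPM in other spots, with no overlap (edgeR adjusted p = 0.00075).

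The gene hmcn1 was lower in vascular-rich spots, at 0, 4.38, 1.94 and 3.16 CPM against 9.65, 18.7, 8.53 and 4.66 CPM, with a log2 fold change of -1.81 (edgeR adjusted p = 0.00095). This call was lost with DESeq2 (adjusted p = 0.0798), so that no member was then called lower. The perlecan gene hspg2, a vascular basement membrane component in mammals, had a log2 fold change of 0.09 and did not pass the test. All 6 radial glia genes, 5 of 7 immune genes and 2 of 4 tested fibroblast genes were also higher in vascular-rich spots. The summed levels were higher by 0.65 ± 0.18 for the radial glia, 1.10 ± 0.13 for the immune and 0.93 ± 0.26 for the fibroblast list (SD, n = 4 males, log2 scale), and their part in the result was not tested. In spots rich in the vascular list only, fbln1 was higher and hmcn1 lower of 17 members tested, against 1.69% of all genes called. No basement membrane gene was called in that setting. With DESeq2 8 members were called, against 4.89% of all genes, and without building male 2 the count was 6, against 4.09% of all genes.

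Immune-rich spots were higher for 16 of 30 members tested and lower for 0, or 53.3%, against 17.6% of 12798 genes (11.9% higher and 5.66% lower). The members' median log2 fold change was 0.90, against -0.03 over all genes. The largest changes were those of col1a2, col18a1, lama2, col23a1 and itga8.

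The values of col1a2 were 14.8, 24.9, 38.2 and 48.4 CPM in rich and 1.40, 2.67, 1.60 and 2.64 CPM in other spots. The log2 fold change was 3.96 (edgeR adjusted p = 2.04e-09), and 123 of its 239 UMIs lay in the 676 rich spots. The values of lama2, a laminin alpha chain gene, were 47.4, 40.6, 42.2 and 53.0 CPM in rich and 6.99, 7.53, 4.97 and 6.71 CPM in other spots. Its log2 fold change was 2.91 (edgeR adjusted p = 7.73e-10), with males close together and no overlap.

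For col18a1 the values were 23.7, 30.9, 32.2 and 21.0 CPM in rich and 9.32, 2.84, 3.37 and 2.85 CPM in other spots, with a log2 fold change of 3.02 (edgeR adjusted p = 1.64e-07). For col23a1 they were 5.92, 14.6, 22.1 and 30.1 CPM in rich and 4.43, 2.32, 3.72 and 2.98 CPM in other spots, so that building male 1 differed least. Its log2 fold change was 2.79. The values of itga8 were 2.96, 8.13, 10.1 and 17.4 CPM in rich and 3.495, 1.59, 1.42 and 4.47 CPM in other spots. In building male 1 itga8 thus ran the other way, and its log2 fold change was 2.16. The perlecan gene hspg2 was higher by 1.15 and col4a2 by 1.36, while hmcn1 at -0.72 did not pass the test. In building male 2, which held 645 of its 1032 UMIs, hspg2 was nearly level, at 27.6 CPM in rich and 25.5 CPM in other spots.

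Immune-rich spots were shallower, with a median of 5561.5 UMIs against 8757 in building male 2 and of 6067.5 against 9491.5 in control male 2. They were also less often pallial, with 42.9% against 67.2% of spots in control male 2 and 52.2% against 53.5% in building male 2. The part of this mix was not tested. All 6 radial glia genes, 9 of 11 tested vascular genes and 3 of 4 tested fibroblast genes were higher in them. The summed fibroblast list ran from 38.5 to 74.9 CPM in rich and from 21.9 to 25.0 CPM in other spots over the males, and its part in the result was not tested. In spots rich in the immune list only, lama2 was the one call among 15 members tested, against 3.68% of all genes called, and col1a2, col18a1, col23a1 and itga8 had too few counts to be tested there. Without control male 2 the count was 9, against 10.2% of all genes. With DESeq2, 13 members were called, against 12.4% of all genes. The calls of lamc1, itga7 and lama4 were lost (DESeq2 adjusted p = 0.0661, 0.0894 and 0.229). In control male 1 lama4 ran the other way, with 2.01 CPM in rich and 5.675 CPM in other spots.

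Fibroblast-rich spots were higher for 4 of 31 members tested and lower for 1, or 16.1% in all, against 3.28% of 12933 genes (2.44% higher and 0.835% lower). The higher ones were col1a2 at a log2 fold change of 1.61, lama2 at 1.40, itga8 at 1.38 and col23a1 at 1.22, and the lower one was col27a1 at -1.09. In building male 1 lama2 went the other way, with 3.38 CPM in rich and 10.9 CPM in other spots, and itga8 was level at 3.38 and 3.46 CPM. All 4 higher members were also called in radial glia-rich and immune-rich spots. With DESeq2 only col1a2 was called, against 1.24% of all genes. In spots rich in this list only, 0 of 20 members tested were called, against 1.1% of all genes. Without building male 2 the count was 1, against 1.31% of all genes, and this was col27a1, so that no higher member was called. Without control male 2 it was 2, col1a2 and lama2, against 1.65%. In fibroblast-rich spots 4 of 6 radial glia and 3 of 7 immune genes were higher and 5 of 9 subpallial genes lower. The summed immune list differed by 0.59 ± 0.34 and the summed subpallial list by -0.65 ± 0.15 (SD, n = 4 males, log2 scale), and their part in the result was not tested.

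**Figure D3:**
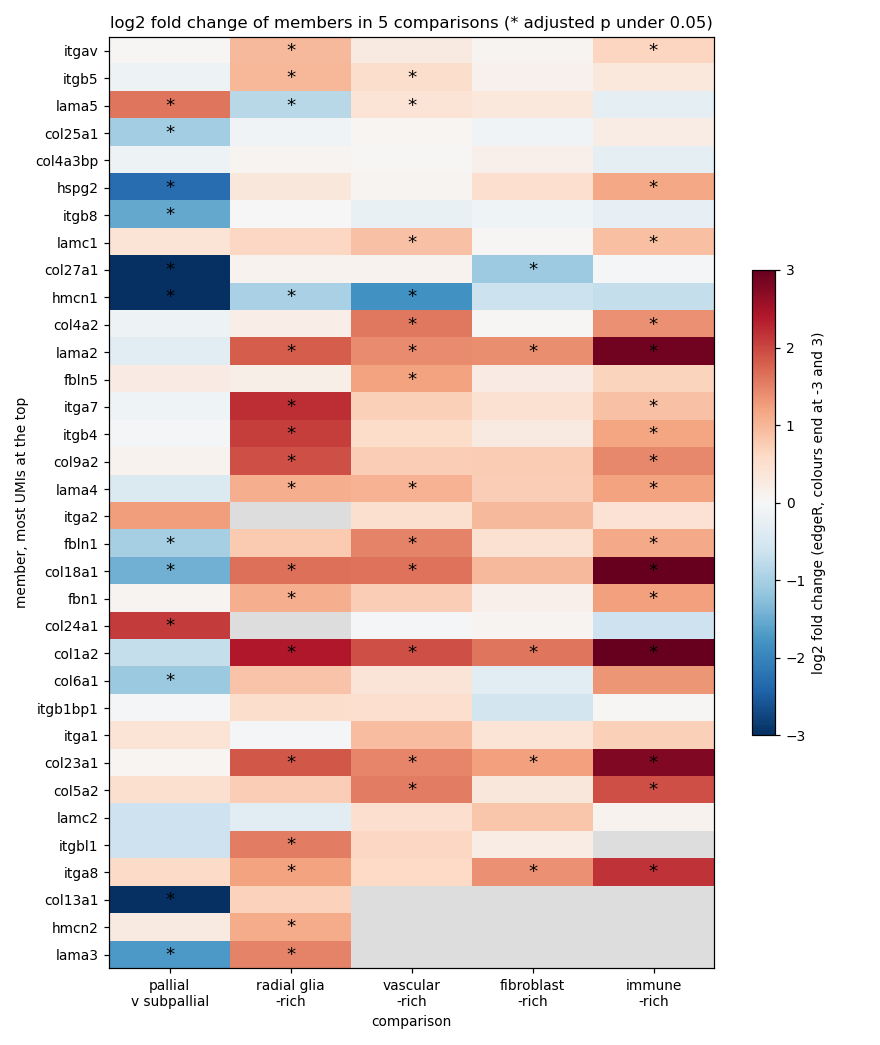
The log2 fold change of each tested member (rows, ordered by UMIs) in the 5 comparisons of spot classes (columns), with asterisks at adjusted p under 0.05 and grey where a member was not tested. Rows such as lama2, col1a2 and col23a1 are red with asterisks in 4 of the columns, and the row of hmcn1 is blue in all 5 with asterisks in 3.

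The calls across cell type lists overlapped, as did the spots. Of the 16 members higher in immune-rich spots, 11 were also among the 15 higher in radial glia-rich spots, which is 68.8% and 73.3% of these sets. With the 12 higher in vascular-rich spots they shared 9, or 56.2% and 75.0%. In all 4 lists 3 members were higher (col1a2, lama2 and col23a1). The sharing of calls between lists was not counted over all genes, so it cannot be read as a trait of the members. In the 5 comparisons of spot classes together, 29 of 55 members were called at least once and 21 were tested in none because of low counts. Those called were 85.3% of the 34 members tested at least once, against 38.2% of 13556 genes.

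**Figure D4:**
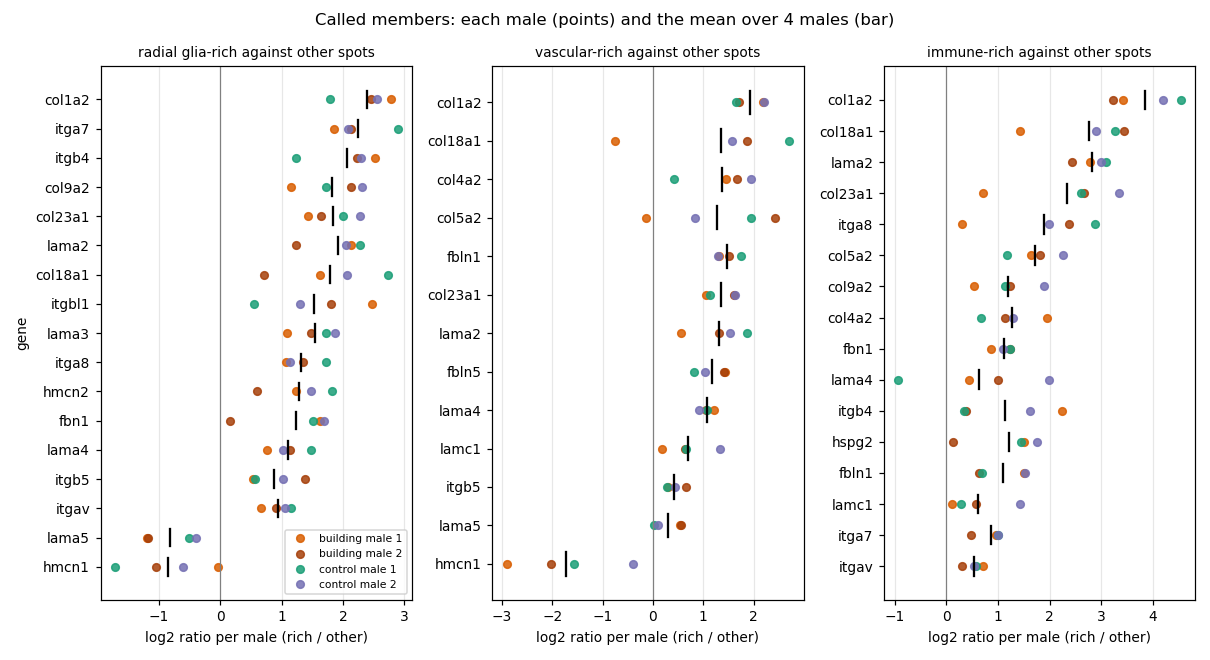
The log2 ratio of CPM in rich to other spots in each male (points) and its mean over 4 males (bars) for the members called in radial glia-rich, vascular-rich and immune-rich spots. Points of col1a2 lie above 1 in all males and all 3 panels, and those of hmcn1 lie below 0 in both panels that show it.

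Genes of the same biology outside the name pattern were read from a list of 53 matrix and adhesion genes, of which 28 matched 29 features. In pallial spots 5 of 22 tested were higher and 8 lower, or 59.1% in all, against 21.8% of all genes. The higher ones included reln, which encodes the secreted protein reelin, at a log2 fold change of 1.90, and the focal adhesion kinase relative ptk2b at 2.28. The gene ptk2b is not on the list by name and was matched through ptk2, since a closing letter was allowed. The lower ones included hapln4, a link protein gene of perineuronal nets, at -2.53 and dag1, the laminin receptor dystroglycan, at -0.52. In radial glia-rich spots 10 of 22 were higher and 4 lower, or 63.6% in all, against 20.1% of all genes. The collagen-binding glycoprotein gene sparc was at 375, 244, 262 and 404 CPM in rich and 94.6, 67.5, 89.2 and 95.6 CPM in other spots, with a log2 fold change of 1.89 (edgeR adjusted p = 6.48e-09). The groups did not overlap. The matrix protease gene mmp2 was higher by 1.86 in radial glia-rich, 1.38 in vascular-rich, 1.06 in fibroblast-rich and 2.56 in immune-rich spots. Other genes of the list went down. In radial glia-rich and immune-rich spots reln, mmp16, ptk2b and timp3 were lower, with reln at -0.73 and mmp16 at -0.51 in immune-rich spots. In vascular-rich spots reln was lower at -0.39, and in fibroblast-rich spots tnr at -0.47. Of the list, mmp2 and sparc included, 3 of 20 were higher and 1 lower in vascular-rich spots, against 7.05% and 2.06% of all genes. In immune-rich spots 7 of 21 were higher and 4 lower, against 11.9% and 5.66% of all genes. In fibroblast-rich spots 3 of 23 were higher and 1 lower, against 2.44% and 0.835% of all genes.

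Members that vary together were sought by correlating sctransform residuals across the spots of each capture area for the 27 members with at least 200 UMIs, averaging over the areas of a male. The points are spots of one library and share its depth, and most counts are 0, so the values are given as a description. Of 351 pairs of members, 1 exceeded r = 0.1 in each of the 4 males, or 0.285%, against 0.0376% of 74523736 pairs of genes. The median r was 0.00454 over member pairs and -0.000371 over all pairs.

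The pair was col23a1 and lama2, with r of 0.180 and 0.232 in building males 1 and 2 and 0.145 and 0.159 in control males 1 and 2. It was above 0 in 12 of 13 areas. Without the spot that contributed most in each area the mean fell to 0.102 and the lowest male to 0.0680. The pair then no longer exceeded r = 0.1 in every male, and the members' share above rests on this 1 pair. The pair hmcn1 and hspg2 had the same mean of 0.179 but a wider spread, with r of 0.126 and 0.371 in building males 1 and 2 and 0.137 and 0.0828 in control males 1 and 2. The highest value came from building male 2, which also had the most hmcn1 UMIs, and without that male the mean was 0.115.

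Pairs of the genes high in immune-rich spots followed, with a mean r of 0.129 for hspg2 and col1a2, 0.123 for lama2 and col18a1, and 0.115 for col23a1 and col18a1. The first rested in part on control male 2, without which the mean was 0.0862. In these pairs the lowest male was between 0.0260 and 0.0658. The pairs of col1a2 with col23a1, col18a1 and lama2 had means of 0.114, 0.109 and 0.107. Each of them was below 0 in building male 1, at -0.0141, -0.0302 and -0.0186. The genes high in pallial spots, col24a1 and lama5, had a mean r of 0.111, which rested on the 1 area of building male 1 with 0.244, and the mean without it was 0.0664. Among integrin chains, itga7 and itgav stayed between 0.0727 and 0.107 in the 4 males. The partner chains itgav and itgb5 had a mean r of 0.0740 and 0.0244 in the lowest male. The members with at least 1000 UMIs gave 0 of 15 pairs above r = 0.1 in each male.

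**Figure D5:**
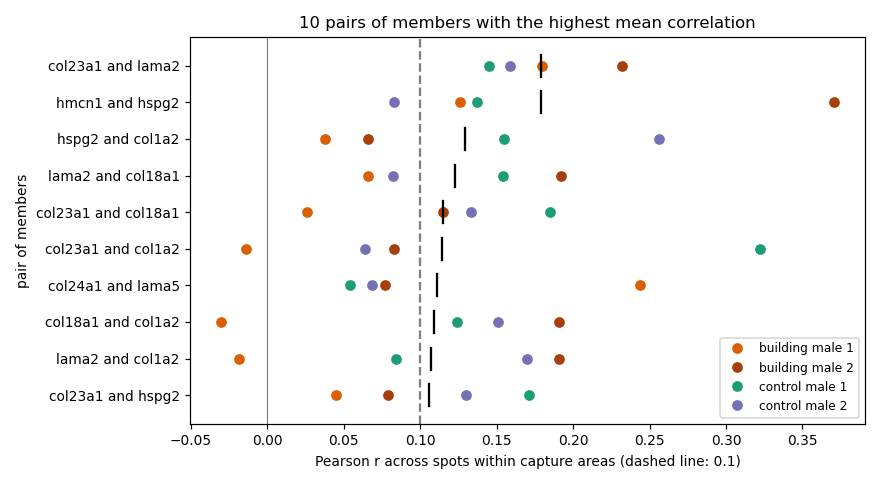
Pearson r across spots in each male (points) and the mean over males (bars) for the 10 pairs of members with the highest mean. In the top pair all 4 males lie right of the dashed line at 0.1, and in the second 1 male, at 0.0828, lies left of it.

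Of the correlations of members with the list scores, the highest was that of col27a1 with the subpallial list, at 0.354 ± 0.142 (SD, n = 4 males). The value for col1a2 and the immune list was 0.255 ± 0.131, for lama2 and the immune list 0.213 ± 0.0245, and for itgav and the radial glia list 0.178 ± 0.0533.

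The last comparison asked whether members differed between building and control males in counts summed over all spots. Of 47 members tested, 0 were called, against 0 of 15532 genes or 0.0%, with a smallest adjusted p of 0.279 over all genes (edgeR). DESeq2 called 17 genes (0.109%) and 0 members. At an unadjusted edgeR p under 0.05 there were 4 of the 47 members, against 306 of 15532 genes or 1.97%. The 4 members were col13a1, itgb8, hmcn1 and hspg2, which were all called higher in subpallial spots.

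The levels of hmcn1 were 8.85 and 17.6 CPM in building males and 7.98 and 4.54 CPM in control males, and the log2 fold change was 1.14 (edgeR adjusted p = 1.0). Those of itgb8 were 32.2 and 19.9 CPM in building and 15.8 and 14.6 CPM in control males, with a log2 fold change of 0.74. For hspg2 they were 22.9 and 25.7 CPM against 18.7 and 10.5 CPM, and for col13a1 6.04 and 3.30 CPM against 1.47 and 1.58 CPM. In each of these 4 genes both building males lay above both control males, with 2 males per condition. The genes were picked by p from these same values, so this order adds no support, and its share over all features was not counted. By section the conditions overlapped in each of these genes. For hspg2, area D of control male 1 was at 40.9 CPM and the only area of building male 1 at 22.9 CPM. Subpallial spots made up 339 of 801 spots in building male 1, 1255 of 2694 in building male 2, 782 of 1586 in control male 1 and 588 of 1670 in control male 2, and the part of this mix was not tested. The effect of each spot class was also compared between conditions as an interaction term, and no member was called in any of these 5 comparisons, with at most 3 at an unadjusted p under 0.05. Over all genes 2 to 21 were called in each, so that calls were rare among all genes as well.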

How the data were processed

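The deposited matrices hold unnormalized UMI counts of each feature in each spot, which the authors produced with Space Ranger 1.3.1 (aligned to the *Maylandia zebra* genome assembly). Empty spots were dropped. Counts were normalized with sctransform 0.4.2 only to score spots and to correlate genes. For tests, raw counts were summed per male and spot class and fitted with edgeR 4.0.16 (filterByExpr, TMM, quasi-likelihood test, male as block for spot classes, Benjamini-Hochberg adjustment over all genes tested). DESeq2 1.42.0 was an alternative. Log2 ratios per male had 0.5 added to each count. List names were matched as written, with a closing letter a or b allowed except in the neuron lists, or by locus number. Named genes were the 20 members with the most UMIs, up to 5 called members per direction and comparison, hmcn1, hspg2 and pairs that varied together. The members, lists and tests were chosen with earlier results of these data known. Results of 1 further cell type list are not reported here, though its spots entered the settings of spots rich in 1 list or in none. The code was tested on simulated data. Spot positions were not used here.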

Additional observations from a re-analysis of the deposited data

Results flagged for a closer look

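Of 63 log2 ratios of called members, each over 4 males, 4 had 1 male far from the other 3 by Dixon's criterion, and chance alone sets apart about 1 in 20. Control male 1 stood apart for col27a1 in pallial against subpallial spots, with a log2 ratio of -2.47, and for col24a1 in the same comparison, with 4.1, where its subpallial spots held 0 UMIs of the gene. Building male 2 stood apart for fbn1 in radial glia-rich spots, with 0.16, and for itga7 in immune-rich spots, with 0.49.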

How the results depend on the processing

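The call counts of members rest on 4 males and low counts. With DESeq2 the members called were 8 in vascular-rich and 1 in fibroblast-rich spots. With no replicate block, that is without the male as block, they were 6 and 0, and in the building comparison the replicate block gave 0. In fibroblast-rich spots log-normalized scores and the top 5% of spots gave 3 each. The share of all genes called was not counted without the male block, with the replicate block or in these last settings. Those counts thus cannot be read as a trait of the members. In spots rich in 1 list only, chosen after seeing the data, the counts were 6, 2, 0 and 1 for the radial glia, vascular, fibroblast and immune lists, with fewer members tested, and lama2 in fibroblast-rich spots turned to -0.155. Leaving out each male in turn gave 10 to 16 in pallial, 11 to 17 in radial glia-rich, 6 to 13 in vascular-rich, 1 to 5 in fibroblast-rich and 9 to 17 in immune-rich spots, while the share of all genes called ran from 14.0% to 21.1%, 13.8% to 17.0%, 4.09% to 9.01%, 1.31% to 4.36% and 10.2% to 19.3% in the same order. In the building comparison it gave 0 to 2, against 0.0% to 1.15% of all genes. Without a building male, the lone building male is assumed to vary like the 2 control males, from which alone the spread came. In these fits hmcn1 was called without building male 1 and col27a1 and itgb8 without building male 2. Pairs varying together numbered 5 above 0.05, 0 above 0.15, 0 with at least 1000 UMIs and 1 to 3 without each male. With TMM-scaled CPM 7 members again had males that did not overlap, with col6a1 in place of itgb8. The study collected its males as size-matched pairs, but no source used here ties the replicate numbers to them. Same-numbered males correlated at 0.229 with only 2 pairs, which does not show that the numbers pair them. Beyond the threshold changes given, other causes were not tested.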
